A study of Homo sapiens with 6 samples.

Results

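FXR1 and FXR2 are the autosomal paralogs of FMR1, the protein lost in fragile X syndrome. All 3 proteins bind RNA through KH domains and other contacts, associate with ribosomes and messenger ribonucleoprotein particles, and can form complexes with one another. FXR1 is best known for its role in striated muscle, and FXR2 has mainly been studied in the nervous system. The binding sites of FXR1 were set beside those of FXR2 here, as mapped by PAR-CLIP, a method in which a photoreactive nucleoside built into RNA is linked by ultraviolet light to the protein that touches it, and the RNA fragments recovered with the protein are sequenced.

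The comparison held 43538 sites, 9017 of FXR1 and 34521 of FXR2, out of 464799 sites in 6 libraries, and every site in the FXR1 and FXR2 lists was used. The cells were Flp-In T-REx HEK293, an established line of human embryonic kidney origin, with a stable transgene for wild-type FXR1 or wild-type FXR2, each carrying a FLAG-HA tag. Expression was switched on by doxycycline at 1 µg/ml for 16 h together with 100 µM 4-thiouridine, followed by 365 nm light at a dose of 0.15 J per sq cm. Lysates were treated with RNase T1, which cuts RNA after G, for 15 min at 22 °C in all libraries, and the protein was pulled down with an anti-FLAG antibody. The 4 other libraries came from the same system with FMR1 isoform 1 or isoform 7, each as wild type and as the I304N mutant, which alters a KH domain, and were used only as a separate readout. The sites thus describe an induced, tagged copy of each protein, and the labels do not say that the cells' own FMR1, FXR1 or FXR2 had been removed. With 1 library per protein, the values carry no replicate error and no p-value. Intervals in brackets are 95% intervals (Clopper-Pearson for shares, exact conditional for ratios of shares, normal approximation for differences) and cover counting error only.

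The lists gave positions on hg19 with a strand, and no gene name, sequence or read number. Loci are therefore given by position, and the genes and transcript parts under them were not analysed here. The FXR2 list was 3.83 times as long as that of FXR1. Names in the lists were read as a group number and a site number within the group, a meaning the sources used here do not state. On this reading the FXR1 list held 8998 groups with a highest group number of 12261, so 73.4% of numbers were listed. The FXR2 list held 33895 groups with a highest number of 40385 (83.9%). What the unlisted numbers stood for is not given in the sources used here. Only 0.167% of FXR1 groups and 1.62% of FXR2 groups held more than 1 site, against 5.54% to 19.8% in the FMR1 libraries. FXR1 sites were 10 to 67 nt wide with a median of 20 nt, and FXR2 sites were 10 to 147 nt wide with the same median.

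Most FXR1 sites were also FXR2 sites. Of the 9017 FXR1 sites, 6706 shared 1 nt or more of the same strand with an FXR2 site, 74.4% (73.5 to 75.3). The 6684 FXR2 sites on the other side of these overlaps made up 19.4% of the FXR2 list (18.9 to 19.8), which left 2311 FXR1-only and 27837 FXR2-only sites. The 1 nt limit mattered little: the median overlap was 20 nt, the shortest was 2 nt, and only 2 overlaps were under 5 nt long, while 30 FXR1-only sites had an FXR2 site at most 5 nt away. A single FXR1 site met an FXR2 site on the opposite strand, 0.0111% of the list (0.000281 to 0.0618). Among sites of up to 22 nt in both lists, 61.2% of FXR1 sites were shared, a setting that also takes out FXR2 partners wider than 22 nt.

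The overlapping sites formed 6711 pairs, of which 6649 joined 1 FXR1 site to 1 FXR2 site (99.1%). The 5′ end was the same nucleotide in 5144 pairs, 76.7% (75.6 to 77.7), and the 3′ end in 5108, 76.1% (75.1 to 77.1). Only 412 pairs, 6.14%, differed at both ends. Where a pair was not identical, the FXR2 site was the wider one in 1922 of 2758 pairs, 69.7% (67.9 to 71.4). The extra length lay at either end: FXR2 began upstream in 77.3% (74.8 to 79.7) of pairs that differed at the 5′ end alone and ended downstream in 61.2% (58.4 to 64.0) of pairs that differed at the 3′ end alone. The width gap was small on average, 20.6 nt (SD 3.56 across sites) for FXR1 and 22.1 nt (SD 7.65) for FXR2.

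**Figure D1:**
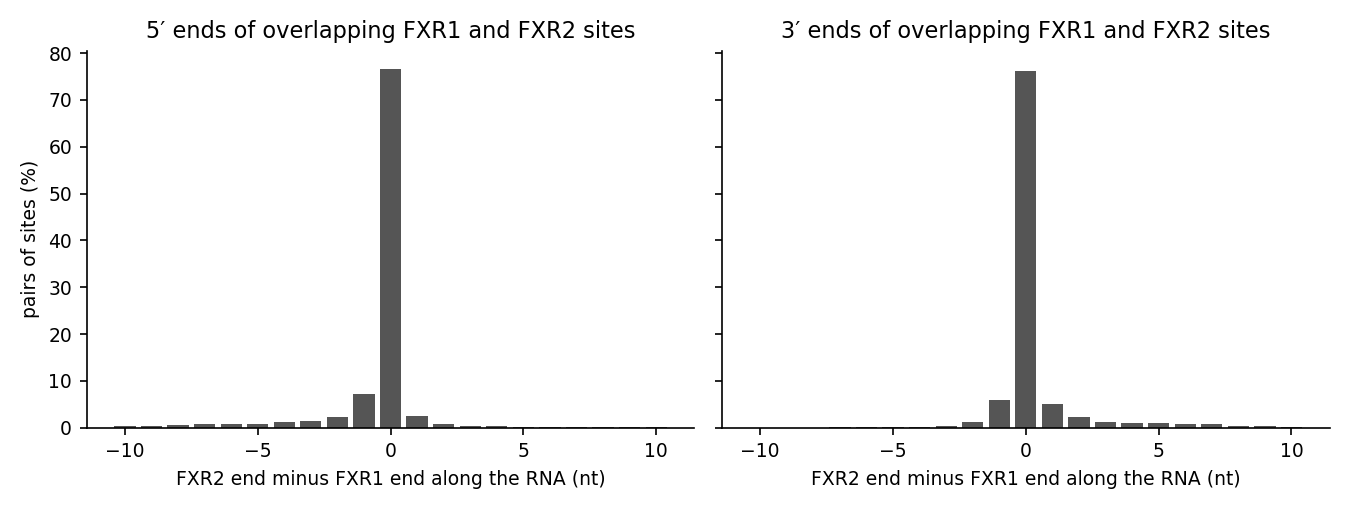
Offset in nt between the ends of overlapping FXR1 and FXR2 sites, measured along the RNA, for the 5′ end (left) and the 3′ end (right), as a percentage of the 6711 pairs. Bars at 0 hold 76.7% and 76.1% of pairs. At the 5′ end the tails lean to FXR2 ends outside the FXR1 site: 7.18% of pairs have it 1 nt upstream and 2.53% 1 nt downstream. At the 3′ end this lean is absent at 1 nt, with 5.11% of FXR2 ends downstream and 5.89% upstream. It is present at 2 nt, with 2.26% downstream and 1.30% upstream.

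Shared sites were more crowded than unshared ones in both lists. Among FXR1 sites, 38.5% of the shared (37.3 to 39.6) and 68.7% of the FXR1-only (66.7 to 70.6) had no other FXR1 site within 1000 nt on the same strand. The same measure in FXR2 was 19.3% of the shared (18.3 to 20.2) and 31.7% of the FXR2-only (31.2 to 32.3). A median shared FXR2 site had 4 other FXR2 sites within 1000 nt, and a median FXR2-only site had 2. Read the other way, the shared part of FXR1 was 61.9% (60.4 to 63.4) among isolated sites, 81.3% with 1 or 2 neighbours, 87.0% with 3 to 5, 91.2% with 6 to 10, and 98.5% (94.6 to 99.8) with more. The shared part of FXR2 was 12.7% (12.1 to 13.4) among isolated sites and 33.3% (31.6 to 35.0) among sites with over 10 neighbours. Crowding, the depth of a library and its number of sites could not be told apart, since the lists hold no read numbers.

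Width separated the classes as well. FXR1-only sites were 18.6 nt wide on average (SD 3.28) against 20.6 nt (SD 3.53) for shared FXR1 sites, and 41.6% of them (39.6 to 43.6) were at most 17 nt wide, against 14.1% (13.3 to 14.9) of the shared. FXR1 sites of 10 to 14 nt were shared in 39.4% of cases (32.9 to 46.1) and those of 20 to 22 nt in 83.0% (81.5 to 84.3). In FXR2 the narrowest sites stood apart most: 2.91% (2.20 to 3.78) of sites of 10 to 14 nt were shared, against 21.6% (20.8 to 22.4) of those of 20 to 22 nt. A wider site has more room to overlap another, and this part of the difference was not separated.

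**Figure D2:**
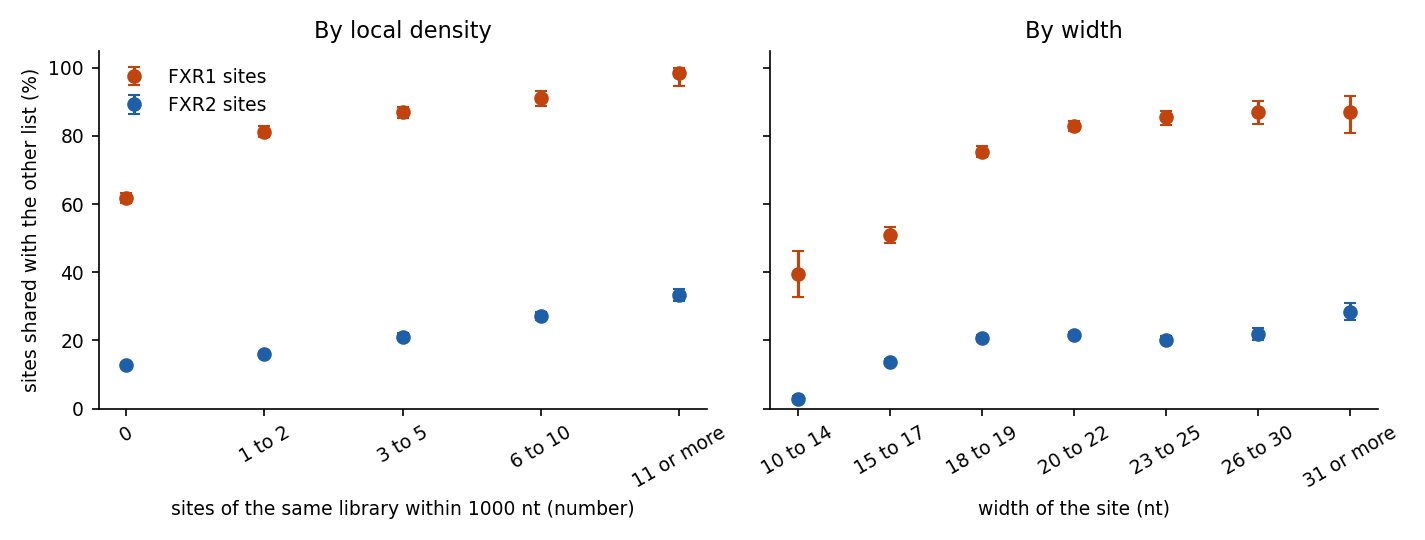
Percentage of FXR1 sites (orange) and of FXR2 sites (blue) that overlap a site of the other list, by the number of sites of the same library within 1000 nt (left) and by the width of the site in nt (right), with 95% Clopper-Pearson intervals. The FXR1 points go from 61.9% to 98.5% with local density, and the FXR2 points from 12.7% to 33.3%.

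The authors' repeat flag went with sharing in FXR1. Of FXR1-only sites, 10.9% (9.70 to 12.3) lay in a repeat, against 4.44% (3.96 to 4.96) of shared FXR1 sites, a difference of -6.50 points (-7.87 to -5.14, shared minus unshared). In FXR2 the difference was small and had the opposite sign, 4.64% of shared and 3.74% of FXR2-only sites, 0.902 points (0.351 to 1.45). Within pairs the flag was nearly always the same: 299 pairs were flagged in both lists, 1 in FXR1 alone and 12 in FXR2 alone.

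Unshared sites of one paralog were often close to a site of the other. Of the 2311 FXR1-only sites, 38.7% (36.7 to 40.7) had an FXR2 site within 1000 nt on the same strand, and 49.5% (47.4 to 51.5) had none within 10000 nt. Of the 27837 FXR2-only sites, 33.9% (33.3 to 34.4) had an FXR1 site within 1000 nt and 46.4% (45.8 to 47.0) had none within 10000 nt. The FXR1-only sites with no FXR2 site within 1000 nt, 1416 in number, were isolated within their own list in 94.0% of cases (92.6 to 95.2), and 14.6% (12.8 to 16.6) of them lay in a repeat. For the 895 FXR1-only sites that did have an FXR2 site within 1000 nt these shares were 28.6% and 5.14%.

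The FMR1 libraries, which had no part in forming the classes, divided the FXR1 and FXR2 lists differently. They held 78495 to 132219 sites each, with mean widths of 23.2 to 29.5 nt. Among FXR1 sites, the shared ones lay more often on a site of wild-type FMR1 isoform 1, 82.1% (81.1 to 83.0) against 34.9% (33.0 to 36.9) of FXR1-only sites. They also lay more often on sites of I304N isoform 1 (32.7% against 11.8%) and I304N isoform 7 (22.3% against 6.58%). For wild-type isoform 7 the gap was 22.5% against 17.6%, 4.93 points (3.09 to 6.78), and it shrank to 0.452 points (-1.27 to 2.18) when 50% of the shorter site had to overlap. No site of any FMR1 library lay on 15.3% of shared and 54.8% of FXR1-only sites.

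Among FXR2 sites, wild-type isoform 1 was the only FMR1 library met more often by the shared ones. It lay on 82.1% of shared FXR2 sites (81.1 to 83.0) and 60.1% of FXR2-only sites (59.5 to 60.7). The other 3 FMR1 libraries went the opposite way. I304N isoform 1 lay on 33.0% of shared and 49.3% of FXR2-only sites, a difference of -16.3 points (-17.6 to -15.1). Wild-type isoform 7 lay on 22.8% and 34.3%, -11.5 points (-12.6 to -10.3), and I304N isoform 7 on 22.4% and 37.8%, -15.3 points (-16.5 to -14.2).

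Sorting FXR2 sites by the full pattern of FMR1 overlap showed the same split. FXR2 sites that met wild-type isoform 1 and no other FMR1 library were shared with FXR1 in 36.1% of cases (35.1 to 37.1). With 1, 2 and 3 further FMR1 libraries on the site this share was 25.8%, 17.9% and 13.7% (12.9 to 14.5). FXR2 sites that met other FMR1 libraries but not wild-type isoform 1 were shared in 4.40% of cases (3.78 to 5.09), and those that met no FMR1 library in 12.3% (11.6 to 13). The order of the first 3 of these classes was the same at every local density: among isolated FXR2 sites the shares were 26.2% for wild-type isoform 1 alone, 12.7% for that library with others and 4.40% for the others alone, and among FXR2 sites with over 10 neighbours they were 52.4%, 27.1% and 7.75%. The gap between the last 2 classes was small under a stricter rule: with 50% of both sites required to overlap in all lists, the 3 shares were 31.5%, 11.4% and 10.9%. Mean widths of these classes of FXR2 sites were 20.9 nt, 21.6 nt and 19.8 nt.

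FXR1 sites showed no such decline. They were shared with FXR2 in 85.7% of cases (84.6 to 86.8) when wild-type isoform 1 was the only FMR1 library on the site and in 91.3% (89.5 to 92.9) when all 4 were. Without wild-type isoform 1 but with another FMR1 library the share was 42.6% (37.8 to 47.5), and without any FMR1 library it was 44.7% (42.7 to 46.8). The shared sites of both lists came from the same overlaps, and the totals differed. With wild-type isoform 1 alone, 3164 of 3691 FXR1 and 3143 of 8713 FXR2 sites were shared. With all 4 FMR1 libraries, 968 of 1060 FXR1 and 991 of 7224 FXR2 sites were. The labels name more than 1 Illumina sequencer model and do not assign libraries to them, so shares within a sequencing run could not be given, and a run and a protein cannot be told apart.

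**Figure D3:**
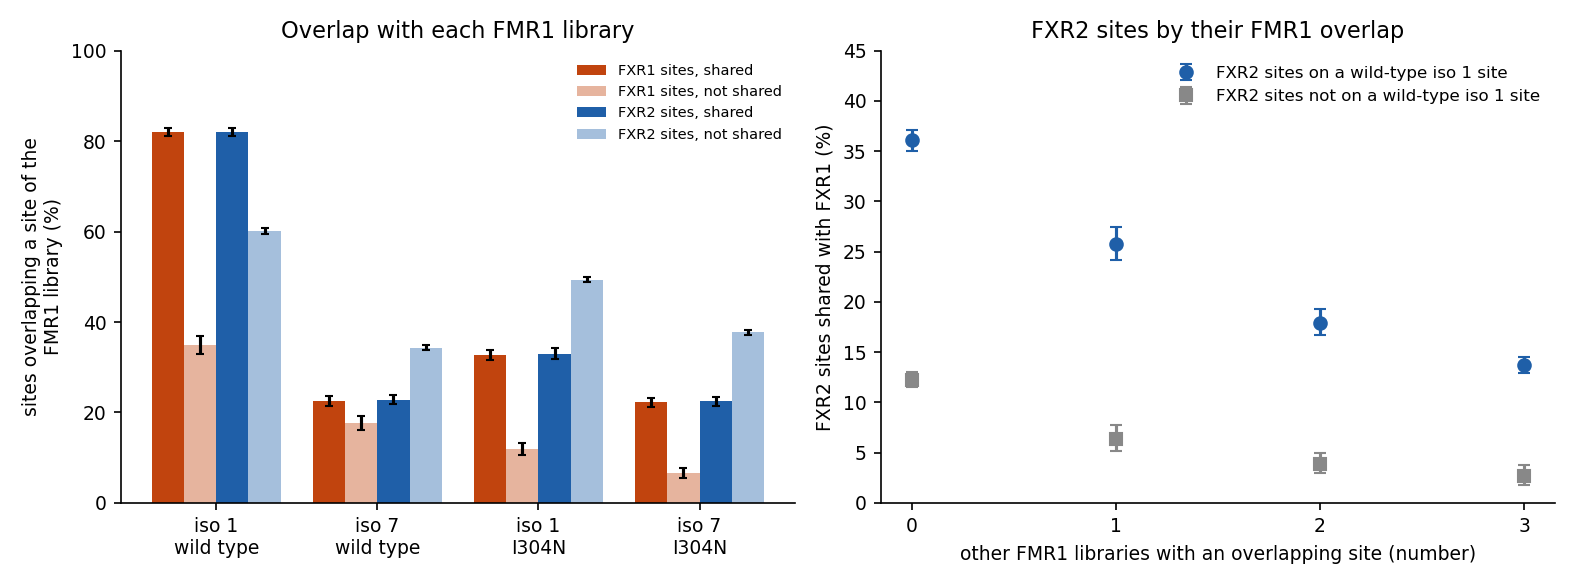
Left: percentage of shared and unshared FXR1 and FXR2 sites that overlap a site of each FMR1 library. Right: percentage of FXR2 sites shared with FXR1, by the number of FMR1 libraries other than wild-type isoform 1 that have a site there, for FXR2 sites on a wild-type isoform 1 site (circles, 36.1% to 13.7%) and off it (squares, 12.3% to 2.69%). Error bars are 95% Clopper-Pearson intervals.

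A set that met wild-type FMR1 isoform 7 alone appeared among FXR1-only sites far from FXR2. Of the 1416 FXR1-only sites without an FXR2 site within 1000 nt, 162 met wild-type isoform 7 and no other FMR1 library, 11.4% (9.83 to 13.2). The corresponding share was 0.447% among shared FXR1 sites and 0.961% among FXR2-only sites without an FXR1 site within 1000 nt. These 162 sites were narrow, 17.1 nt on average (SD 1.77), 98.1% were isolated in the FXR1 list, and 17.9% lay in a repeat. Such traits were not particular to them: of all 1416 sites, 94.0% were isolated and 14.6% (12.8 to 16.6) lay in a repeat. FXR1 sites met in no other library were also narrow, 17.9 nt on average (SD 2.87). In 85 of the 162 sites, 52.5% (44.5 to 60.4), both ends were identical to those of the isoform 7 site. Among the 30 shared FXR1 sites on wild-type isoform 7 alone this held for 10, 33.3% (17.3 to 52.8), and the intervals overlap. Another 143 of the 1416 sites met wild-type isoform 1 alone, were 20.1 nt wide (SD 2.77) and had both ends in common with it in 18.9% of cases (12.8 to 26.3). Sites of the wild-type isoform 1 library were wider, 29.5 nt on average against 23.2 nt for wild-type isoform 7, and this was not separated. Over all FXR1-only sites on a wild-type isoform 7 site, 213 of 406 had its 5′ end, 52.5% (47.5 to 57.4), against 205 of 1509 for shared FXR1 sites, 13.6% (11.9 to 15.4). The other FMR1 libraries had the same direction: 39.7% of FXR1-only and 32.4% of shared sites for wild-type isoform 1, 23.1% and 9.88% for I304N isoform 1, and 24.3% and 10.2% for I304N isoform 7. This set was noticed after the values were seen. Whether these sites share an origin with the isoform 7 library was not tested.

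Sites met in no other library made up more of the FXR2 list than of the FXR1 list, but the lists of the other paralog differed in length. An FXR1 site could meet any of 34521 FXR2 sites, and an FXR2 site any of only 9017 FXR1 sites. Against the FMR1 libraries alone, 2293 of 9017 FXR1 and 8343 of 34521 FXR2 sites met none. FXR2 sites met in no other library numbered 7319, 21.2% of the list (20.8 to 21.6), with a mean width of 19.99 nt (SD 3.24). The 1267 such sites of FXR1 were 14.1% of its list (13.3 to 14.8). They were narrower, 17.9 nt (SD 2.87), 80.2% of them were isolated, and 11.4% lay in a repeat, against 47.6% and 5.94% for FXR2. Sites met in both paralogs and in no FMR1 library numbered 1026 in FXR1, 11.4% of the list (10.7 to 12.1).

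The chromosomes did not hold equal parts of the lists. FXR1 had a larger share of its sites than FXR2 on 5 of 23 nuclear chromosomes and a smaller share on 6, beyond the counting interval of the ratio, leaving the Y chromosome out. The ratio was highest on chromosome 21, at 1.31 (1.09 to 1.56), with 162 FXR1 and 475 FXR2 sites, and on chromosome 2, at 1.26 (1.16 to 1.38). Chromosomes 4, 5 and 6 had ratios of 1.15, 1.10 and 1.10, with lower limits of 1.01, 1.01 and 1.00. The ratio was lowest on chromosome 22, at 0.588 (0.473 to 0.725), with 102 FXR1 sites, and it was 0.720 (0.624 to 0.827) on chromosome 13, 0.762 on chromosome 20, 0.767 on chromosome 16, and 0.857 on chromosomes 9 and 15. Chromosome 19 had 5.89% of FXR1 and 6.40% of FXR2 sites, a ratio of 0.919 (0.835 to 1.01). Without the 5 densest windows of each library, chromosome 19 also fell below 1, at 0.897 (0.812 to 0.989), the X chromosome was above it, at 1.13 (1.01 to 1.26), and the intervals of chromosomes 5, 9 and 15 then included 1. Without sites in repeats, the intervals of chromosomes 4 (0.995 to 1.29) and 5 (0.983 to 1.18) included 1, and the X chromosome was again above it, at 1.14 (1.01 to 1.28). The shared part of FXR2 ranged from 11.1% (8.85 to 13.8) on chromosome 22 to 27.4% (23.4 to 31.6) on chromosome 21. The mitochondrial genome had 18 FXR1 and 35 FXR2 sites, all on the plus strand.

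For local density, sites were counted in strand-specific windows of 50 kb and scaled to 100000 sites per library. FXR1 had a site in 3806 windows and FXR2 in 7976, and 2770 held both, 72.8% of the FXR1 windows and 34.7% of the FXR2 windows. The densest 519 of the FXR1 windows carried 50% of FXR1 sites, and the densest 905 of the FXR2 windows 50% of FXR2 sites. Windows averaging 2 or more sites over the FXR1 and FXR2 libraries numbered 2785, and 369 of them had at least 2-fold higher density in FXR1 (13.2% of windows) and 983 had at least 2-fold lower density (35.3%), by ratios that include a pseudocount of 1. In 790 of those 983 windows FXR1 had no site, and there the ratio rests on the FXR2 count. A window without an FXR1 site passed the filter only with 4 or more FXR2 sites, which fixed its call as lower in advance. Only 2 of the compared windows had no FXR2 site, and the FXR2 list was 3.83 times as long. With median-of-ratios scaling, which moved the median log2 ratio of all windows by -0.57, the calls were 142 higher and 1273 lower, so that 10.0% of calls were higher in place of 27.3%. Of the 2785 windows, 1993 held at least 1 site of each library, and among these, a restriction chosen after seeing the data, 367 were higher and 193 lower, with a median log2 ratio of 0.28. Across the 2785 windows Pearson's r between the log2 scaled densities was 0.41 and Spearman's rho 0.43, a description only, since the windows share the same 2 libraries and their depths.

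Where FXR2 was dense, FXR1 was rarely missing. Of 273 windows with at least 20 FXR2 sites, 12 had no FXR1 site, 54 were at least 2-fold lower in FXR1 and 22 at least 2-fold higher. Of all 2785 windows, 983 were lower and 369 higher. A choice by FXR2 count favours lower calls, since that count enters the ratio. How many dense windows would lack FXR1 from list length alone was not tested. Of 151 windows with at least 10 FXR1 sites, a choice that favours higher calls, 49 were higher and 0 lower. In these 151 windows a median of 91.7% of the FXR1 sites were shared, and in 50 windows all were. In 5 windows under 50% were shared. The lowest of these, picked after its values were seen, was chr3:180650001-180700000 (plus strand), where 3 of 13 FXR1 sites and 3 of 7 FXR2 sites were shared.

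**Figure D4:**
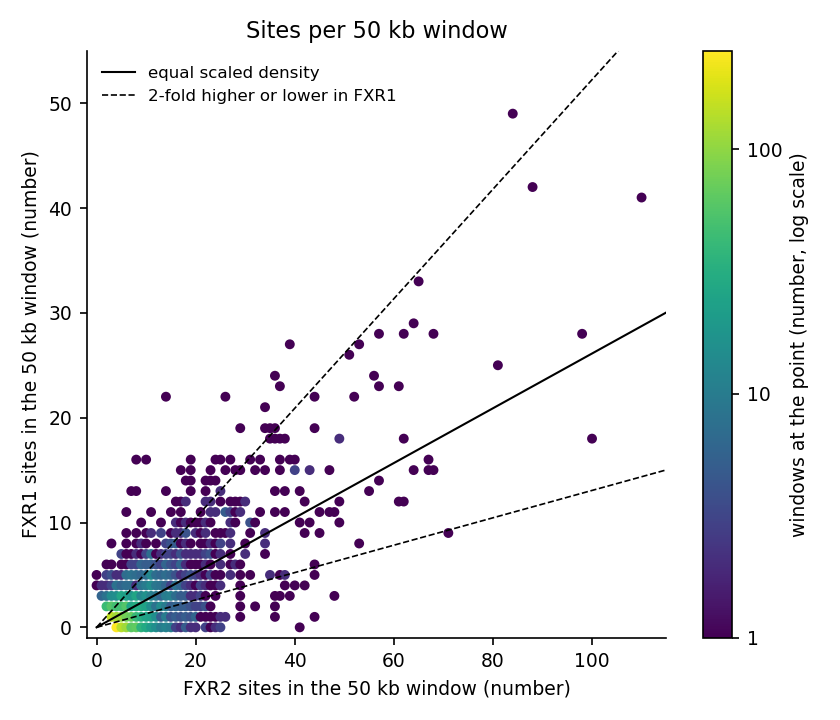
Number of FXR1 sites (vertical) against FXR2 sites (horizontal) in the 2785 windows of 50 kb, 1 point per combination, coloured by how many windows share it on a log scale. The solid line marks equal density after scaling for list length and the dashed lines 2-fold differences; 790 windows lie at 0 FXR1 sites, with up to 41 FXR2 sites.

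The densest windows were largely common to both proteins. The window chr10:62550001-62600000 (plus strand) ranked first in FXR1 with 49 sites and held 84 in FXR2, a scaled ratio of 2.23 (1.54 to 3.21), and 44 of the 49 were shared. The window chr12:1300001-1350000 (plus strand) had 42 FXR1 and 88 FXR2 sites, 1.83 times the scaled density of FXR2 (1.23 to 2.67), with all 42 shared. In chr21:34900001-34950000 (plus strand), the densest window of FXR2, the numbers were 41 and 110, a ratio of 1.43 (0.972 to 2.06) whose interval includes 1. The windows chr19:57800001-57850000 and chr5:135500001-135550000 (both plus strand) had 33 and 29 FXR1 sites against 65 and 64 of FXR2, ratios of 1.94 (1.24 to 2.999) and 1.73 (1.08 to 2.73). In the chromosome 19 window 24 of the 33 FXR1 sites were shared, and in the chromosome 5 window all 29 were. FXR2 ranked chr16:2800001-2850000 (plus strand) second with 100 sites, where FXR1 had 18 and the ratio was 0.689 (0.392 to 1.15). In chr17:1550001-1600000 (minus strand) it had 98 sites against 28 in FXR1, a ratio of 1.09 (0.692 to 1.68). These windows were picked for their counts, so their ratios are a description. They also depend on the scaling: with median-of-ratios scaling the log2 ratios, pseudocount included, were 0.54 for the chromosome 10 window (1.16 with scaling by list length), 0.25 for chromosome 12 (0.87), 0.34 for chromosome 19 (0.96) and 0.18 for chromosome 5 (0.79), and those of the chromosome 21 and 17 windows were below 0, at -0.10 and -0.48.

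The windows furthest toward FXR1 held few sites. They were picked from the 2785 windows by their log2 ratio, so their ratios and limits are a description and do not allow for this choice. On chr4:79800001-79850000 (minus strand) FXR1 had 5 sites and FXR2 none, with an exact lower limit of 3.51 for the FXR1 to FXR2 ratio (6.38 when 3 sites stand in for 0). On chr19:52150001-52200000 (plus strand) FXR1 had 4 sites against none, with a lower limit of 2.53. Both windows passed the filter through FXR1 alone. Wild-type FMR1 isoform 1 had 13 and 3 sites in these windows and neither I304N library had any. On chr12:21650001-21700000 (plus strand) FXR1 had 8 sites and FXR2 had 3, a ratio of 10.2 (2.45 to 59.7), and on chr1:101400001-101450000 (plus strand) the numbers were 6 and 2, a ratio of 11.5 (2.05 to 116), with no site in common. Wild-type isoform 1 had 32 and 52 sites in these windows and the other FMR1 libraries between 0 and 9. The remaining 6 of the 10 most raised windows had 3 or 4 FXR1 sites and 1 FXR2 site.

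The 10 windows furthest toward FXR2 had no FXR1 site, so they passed the filter through FXR2 alone and rank by their FXR2 count. The limits of their ratios do not allow for this choice and are a description. The largest was chrX:153200001-153250000 (minus strand) with 41 FXR2 sites, where the exact upper limit of the FXR1 to FXR2 ratio was 0.360 (counting 3 sites in place of 0, FXR1 was 3.57-fold lower). All FMR1 libraries were dense in that window, with 74 to 107 sites. Windows with 25 FXR2 sites, where the upper limit of the ratio was 0.609, were chr9:134350001-134400000 (plus strand), chr19:17800001-17850000 (plus strand) and chr19:1550001-1600000 (minus strand). On the chromosome 9 window wild-type isoform 1 had 94 sites, wild-type isoform 7 had 111, and the I304N forms of isoforms 1 and 7 had 115 and 112. The window chr10:115650001-115700000 (plus strand) differed from these: FXR2 had 24 sites, wild-type isoform 1 had 71, wild-type isoform 7 had 17, and the I304N forms of isoforms 1 and 7 had 15 and 5.

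At a finer scale, sites of both lists were chained into stretches wherever neighbours on a strand lay at most 1000 nt apart. This gave 16514 stretches, of which 3678 held both proteins, 1362 held FXR1 alone and 11474 held FXR2 alone. The common stretches were 22.3% of the total and carried 84.5% of FXR1 and 50.2% of FXR2 sites. In 233 of them no FXR1 site overlapped an FXR2 site. Stretches of FXR1 alone were single sites in 97.7% of cases, and those of FXR2 alone in 75.7%. A stretch with 1 FXR2 site held an FXR1 site in 13.8% of cases (13.2 to 14.5), one with 4 to 7 in 55.9% (52.9 to 58.8), and one with 16 or more in 95% (91.4 to 97.4). This rise is partly built in. FXR1 sites also helped to chain FXR2 sites together, and a stretch with more FXR2 sites had more places near which an FXR1 site could fall.

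Several of the largest stretches differed in their internal layout. The stretch with most FXR1 sites, chr12:1309703-1319778 (plus strand), was 10.1 kb long and held 42 FXR1 and 76 FXR2 sites. All 42 FXR1 sites lay between 313 and 3862 nt from its 5′ end, where they overlapped 34 FXR2 sites. Of the FXR2 sites, 29 lay downstream of the last FXR1 site. FXR2 sites there were wide, 36.6 nt on average and up to 147 nt, and 9 FXR1 and 19 FXR2 sites lay in repeats. The stretch with most FXR2 sites, chr16:2811800-2818201 (plus strand), was 6.40 kb long with 92 FXR2 sites, 14.4 per kb, and 18 FXR1 sites, which were spread from 87 to 6068 nt and were all shared. In chr21:34921816-34927139 (plus strand), 31 FXR1 and 79 FXR2 sites lay within 5.32 kb. All 31 were shared, but 4 pairs had both ends the same, and FXR2 sites were 33.7 nt wide on average against 18.5 nt in FXR1. On the minus strand of the same chromosome, chr21:43407098-43414167 held 28 FXR1 and 68 FXR2 sites, with all 28 shared and 16 pairs the same at both ends. In chr10:62559104-62569077 (plus strand), FXR1 sites reached both ends of the stretch, and 30 of 34 overlapped one of the 53 FXR2 sites. In chr13:23903087-23915819 (minus strand), the longest named stretch at 12.7 kb, FXR1 had 24 sites, all shared with the 74 FXR2 sites, and 18 pairs had both ends the same. Wide or closely packed FXR2 sites leave an FXR1 site less room to miss them. How much of the sharing in these stretches came from this was not tested.

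Stretches of 1 protein alone were smaller. The largest of FXR2 alone, chr13:110434441-110438579 (minus strand), was 4.14 kb long with 28 FXR2 sites, and the FMR1 libraries had 20 (isoform 1) and 35 (isoform 7) sites in it as wild type, and 54 and 45 as I304N. The next, chr7:4802333-4808706 (plus strand), had 22 FXR2 sites and, in the same order of libraries, 64, 58, 76 and 72 FMR1 sites. In both stretches the wild-type isoform 1 library was not the richest of the 4 FMR1 libraries. The stretch chr19:17836715-17838467 (plus strand) packed 21 FXR2 sites into 1.75 kb, where the FMR1 libraries had 5, 12, 22 and 18. The stretch chrX:153215841-153220669 (minus strand) had 20 FXR2 sites and 32, 32, 34 and 31 FMR1 sites. In chr10:115668098-115673216 (plus strand), with 19 FXR2 sites, wild-type isoform 1 was the richest, with 50 against 11, 8 and 1. These counts are not scaled to the lengths of the FMR1 lists, which ran from 78495 to 132219 sites. The largest of FXR1 alone, chr1:101444711-101446045 and chr19:52195872-52196543 (both plus strand), held 4 FXR1 sites each. In the first, wild-type isoform 1 had 16 sites and the other FMR1 libraries 2 each. In the second, both wild-type FMR1 libraries had 3 sites and both I304N libraries had none.

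**Figure D5:**
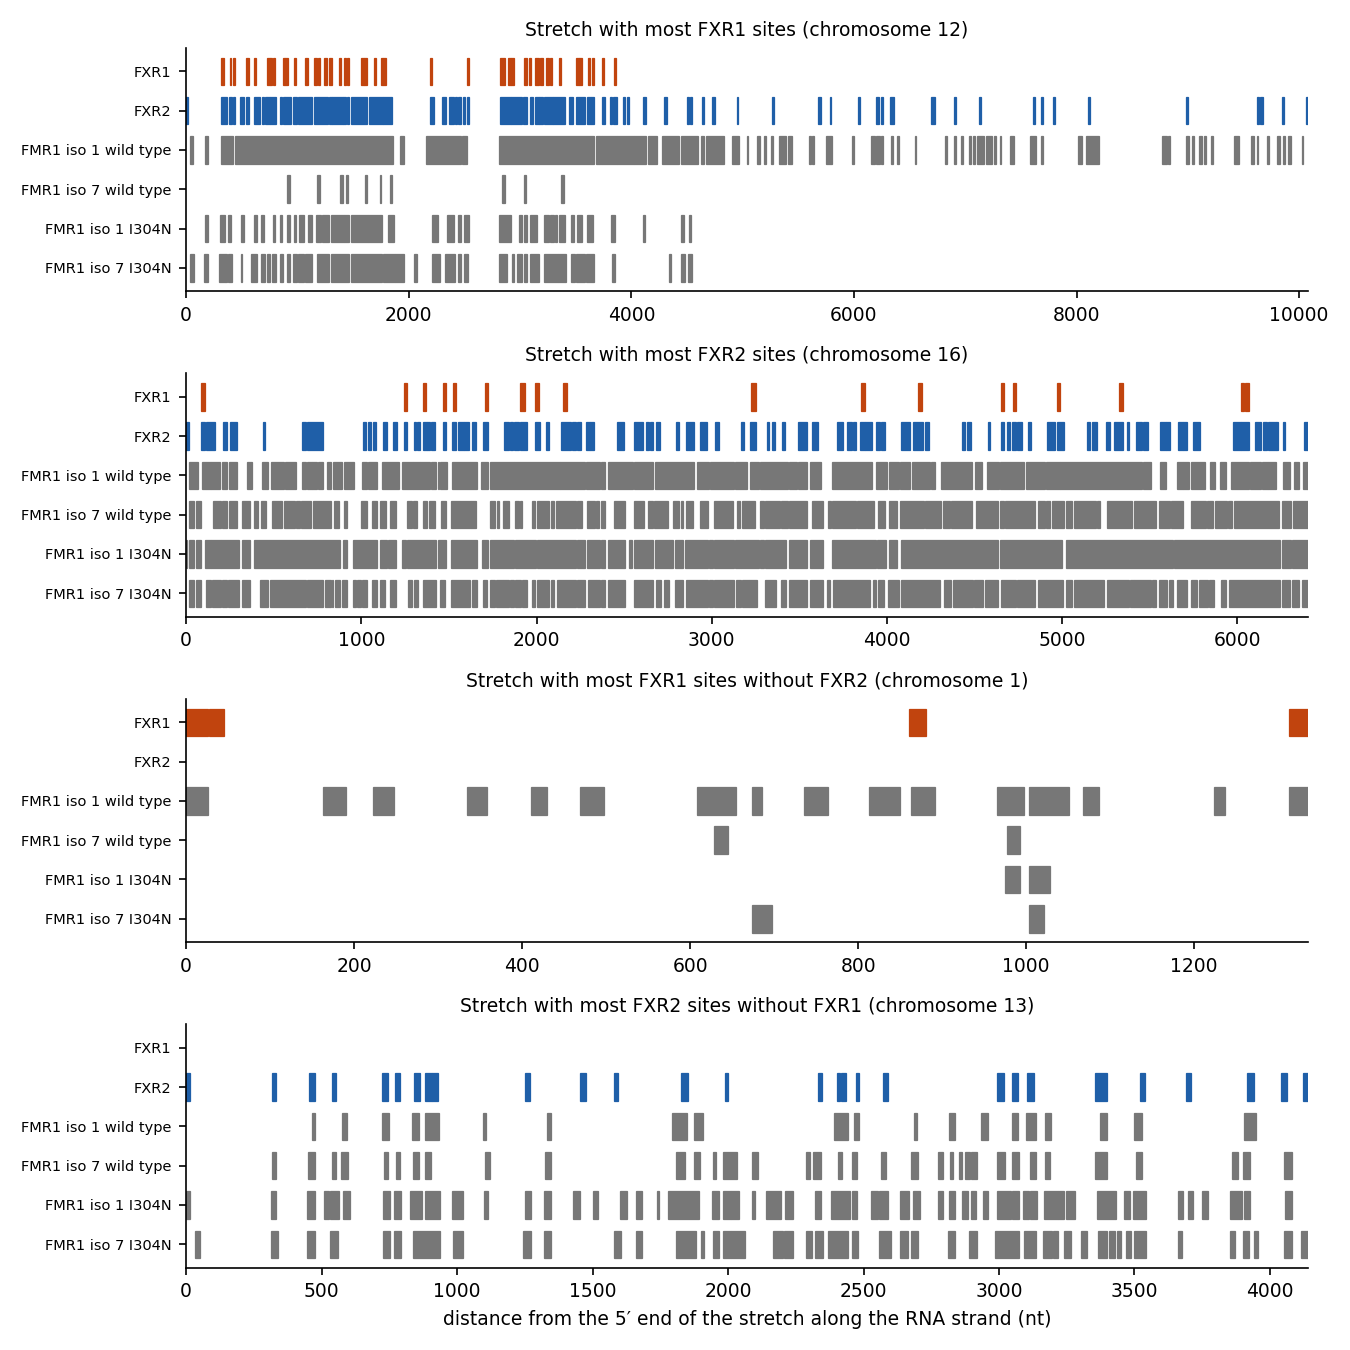
Positions of sites in 4 stretches, as distance in nt from the 5′ end of the stretch along the RNA strand: the stretch with most FXR1 sites (chromosome 12), with most FXR2 sites (chromosome 16), and the largest without FXR2 (chromosome 1) and without FXR1 (chromosome 13). Each block is a site at its true width, cut at the edges of the stretch, 1 line per library. On chromosome 12 the FXR1 sites end at 3862 nt and FXR2 sites go on to the end of the stretch.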

How the data were processed

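Binding sites of 6 PAR-CLIP libraries, 1 per protein form, were analysed, grouped by the immunoprecipitated protein named in the labels. The submitters' processing notes name Bowtie 0.12.7 and the build hg19. How sites were called, with what thresholds and from how many reads, is not stated in the labels or files. The deposited score is a flag, 1000 outside repeats and 0 in a repeat, per the file headers. Starts were taken as 0-based BED positions and are printed 1-based.

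Overlaps, neighbours, windows and stretches were computed with Python 3.11.15, numpy 2.4.6 and scipy 1.17.1, and the functions were tested on simulated data. Distances are the nt between 2 sites on a strand. With 1 library per protein no replicate test was possible. Total sites (9017 and 34521) set the precision: a count of 0 allows 0.0333% of FXR1 and 0.00869% of FXR2 sites (3 counts).

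Named windows were the 5 densest per library and the 10 highest and 10 lowest log2 ratios; named stretches were the 5 with most sites per protein and the 5 largest of each protein alone. The FMR1 overlap patterns, the distant FXR1-only set, the windows with few shared sites and the restrictions to windows with a site of each library were chosen after seeing the data. The text describes a selection of them. Mitochondrial and chromosome 8 loci were counted and not named. The comparison and its lists were chosen with earlier results of these data known. Sequence motifs and transcript parts, planned for an hg19 reference, were not analysed here, since the reference at hand was GRCh38.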

Additional observations from a re-analysis of the deposited data

How the results depend on the processing

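No paired analysis was possible because each protein had 1 library. The share of FXR1 sites that were shared was 72.6% when 50% of both sites had to overlap, 75.5% without repeats, 76.8% when a site within 50 nt counted, and 61.2% with both lists cut to sites of up to 22 nt. For FXR2 sites the last 2 settings gave 24.2% and 17.8%. The gap in isolated sites (shared minus unshared) was -20.9 points in FXR1 and -14.7 in FXR2 with a radius of 200 nt, and -33.9 and -8.01 with 5000 nt. Without repeats the gap in mean FXR1 width was 1.80 nt. Requiring 50% of the shorter site, the gaps for FXR1 sites were 0.452 points on wild-type isoform 7, 15.6 on I304N isoform 1 and 11.9 on I304N isoform 7, and those for FXR2 sites -13.2, -20.4 and -17.5. Without repeats, the gap on wild-type isoform 1 was 44.3 points for FXR1 and 19.6 for FXR2, and the other FXR2 gaps were -13.0, -17.6 and -16.7.

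The shared part of FXR2 sites by FMR1 pattern used settings chosen after seeing the data. For wild-type isoform 1 alone, with others, others alone and none, it was 31.5%, 11.4%, 10.9% and 18.6% with 50% of both sites overlapping. In isolated sites the first, second and last were 26.2%, 12.7% and 10.2%. For sites of up to 22 nt the first 2 were 34.8% and 14.7%, and without repeats the last 3 were 16.3%, 5.89% and 13.5%. By local density, sites with no neighbour were shared in 68.6% (FXR1) and 14.7% (FXR2) of cases with a radius of 200 nt. With 5000 nt, FXR1 sites had 55.3% with no neighbour and 91.0% with over 10, and FXR2 sites had 28.3% with over 10.

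Windows at least 2-fold higher in FXR1 numbered 142 with median-of-ratios scaling, 1952 without a filter, 213 with a mean of 4 sites as the minimum, and 916 with the mean filter replaced by at least 1 site of each library. Lower windows numbered 5399, 413 and 193 under the last 3. The median log2 ratio was -1.96 without a filter. It changed sign to 0.58 with at least 1 site of each library in place of the mean filter, and to 0.28 (193 lower windows) with both requirements, which takes out windows without an FXR1 or FXR2 site and no others. Median-of-ratios scaling turned the log2 ratios of the windows chr21:34900001-34950000 (-0.10) and chr17:1550001-1600000 (-0.48) negative. Stretches of FXR2 alone numbered 17541 with a gap of 200 nt and 7533 with 5000 nt. The cause of the other changes was not tested.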
